A study of Mus musculus with 8 samples.

Results

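The protein genes of the cytosolic ribosome were followed in brain endothelial cells of mouse embryos with 1 or no working copy of Flvcr2, a gene for a membrane transporter. Genes were taken by symbol: those beginning with Rpl or Rps and a number (with an optional a or x), together with Rplp0, Rplp1, Rplp2 and Rpsa. The rule found 76 of the 24421 rows of the count table, 46 of the large and 30 of the small subunit. RNA came from endothelial cells of E14.5 (embryonic day) C57Bl6 brains, 4 libraries heterozygous for the Flvcr2 mutation and 4 homozygous knockout. The mutation itself makes cells express GFP, so both genotypes carry it, and cells were sorted for GFP together with CD31, a surface protein of endothelium. The control is therefore heterozygous and not wild type. Each library was made from 2000 to 5000 sorted cells, and nothing states that libraries of a genotype came from separate embryos, and the spread behind each p-value may be partly technical, since it is that between libraries.

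Library totals lay between 9.11 and 35.9 M counts. Transcripts counted under Mfsd7c, the older symbol of Flvcr2, averaged 427 CPM (counts scaled to a common library size) in heterozygous and 301 CPM across knockout libraries, and the difference was not called (edgeR adjusted p = 0.209). The labels do not name the stretch that the mutation removes, so this does not check the genotypes. Endothelial markers summed to 6309 to 11050 CPM across heterozygous and 8423 to 11580 CPM across knockout libraries, and 1 of 10 was called different between them. Markers of other cell types were lower in knockout libraries: 6 of 8 neuron, 3 of 6 radial glia, 2 of 7 pericyte, 1 of 6 microglia and 2 of 4 tested erythroid genes were called lower. Over all tested genes 5.53% were called higher and 4.02% lower. The neuron markers summed to 252 to 1584 CPM against 76.5 to 233 CPM, and the erythroid markers to 228 to 611 CPM against 17.6 to 51.8 CPM. The other sums overlapped between genotypes. They were 138.6 to 432.5 against 34.4 to 228.5 CPM for radial glia and 158.7 to 271.6 against 19.9 to 166.4 CPM for pericytes. For microglia they were 265.4 to 705 against 69.2 to 446 CPM. No listed marker was at 0 in all libraries.

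Cytosolic ribosomes consist of a small subunit, which decodes the mRNA, and a large subunit, which forms peptide bonds. Each ribosomal protein is generally present once per ribosome, and their mRNAs are among the most abundant of a cell. Most of these mRNAs begin with a C followed by a run of pyrimidines, the terminal oligopyrimidine (TOP) motif, through which the kinase complex mTORC1 and the RNA-binding protein LARP1 control their translation. In growing vessels, as in other proliferating tissues, ribosome production accompanies cell growth.

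The pyrimidine run is shown here for members whose levels are described further on, because it is a sequence feature for which this gene family is known. In the RefSeq start regions (GRCm38.p6, the same build as mm10), the longest run of C or T was searched from 30 bases before to 50 bases after each annotated start, on the gene's strand, and a run that reaches the end of that window may be longer. Capitals mark the run in each stretch of 30 bases, written 5′ to 3′.
Rps2 (chr17:24720083-24720112, plus strand): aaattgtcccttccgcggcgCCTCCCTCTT
Rpl4 (chr9:64173405-64173434, plus strand): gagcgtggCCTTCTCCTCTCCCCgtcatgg
Rplp0 (chr5:115559466-115559495, plus strand): aggaccgcctggTTCTCCTataaaaggcac
Rpl12 (chr2:32961732-32961761, plus strand): ggaggaggcaacggtgcaaCTTTCTTCggt
Rpl34 (chr3:130730330-130730359, minus strand): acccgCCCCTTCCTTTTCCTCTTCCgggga
Rpl13 (chr8:123102324-123102353, plus strand): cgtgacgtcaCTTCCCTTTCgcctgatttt
Rpl38 (chr11:114668568-114668597, plus strand): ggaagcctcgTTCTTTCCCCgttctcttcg
Rpl10 (chrX:74270836-74270865, plus strand): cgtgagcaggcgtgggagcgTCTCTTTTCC
Rps28 (chr17:33824567-33824596, minus strand): tctgtcccgaggaTTCCTgggtaccgcgtg
Start regions were matched for 56 of the 76 members. A run of 8 or more was found in 45 of them (80.4%), against 32.3% of the start regions of 27025 genes and 31.3% of those of 10311 tested genes. The median longest run was 10.5 bases in the members and 6.0 over all genes. Both ends of the fold-change order hold runs of at least 8 bases and shorter ones. Rps2 and Rpl10 each have 10 bases, up to the end of the window, and Rplp0 has 7 and Rps28 has 5. A match of these letters is a description of the annotated start, not proof of a TOP motif, since annotated starts can miss the true one.

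The members moved as 1 block from library to library. Their summed counts made up 2.90%, 2.58%, 2.11% and 3.21% of all counts in heterozygous libraries 1 to 4, and 2.91%, 4.34%, 3.06% and 2.93% in knockout libraries 1 to 4. Knockout 2 stood above and heterozygous 3 below all others, and the genotypes overlapped, since heterozygous 4 exceeded 3 of the 4 knockout libraries. Heterozygous libraries averaged 2.70 ± 0.47% and knockout libraries 3.31 ± 0.69% (SD, n = 4 each), a difference of 0.61 percentage points that is close to the spread within a genotype. Without knockout 2 the difference was 0.27 percentage points. Counting error was small beside this: the 95% Clopper-Pearson intervals reached from 2.10% to 2.12% in heterozygous 3 and from 4.33% to 4.35% in knockout 2, and they cover counting error only.

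Large and small subunit genes kept a nearly fixed proportion while the total varied. The ratio of large to small subunit counts was 1.49, 1.47, 1.49 and 1.45 in heterozygous libraries 1 to 4 and 1.45, 1.44, 1.49 and 1.47 in knockout libraries 1 to 4. The highest ratio was 1.04 times the lowest, whereas the highest share of counts was 2.06 times the lowest. The mean ratios of 1.48 ± 0.02 and 1.46 ± 0.02 (SD, n = 4 each) differed by less than the spread between libraries.

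**Figure D1:**
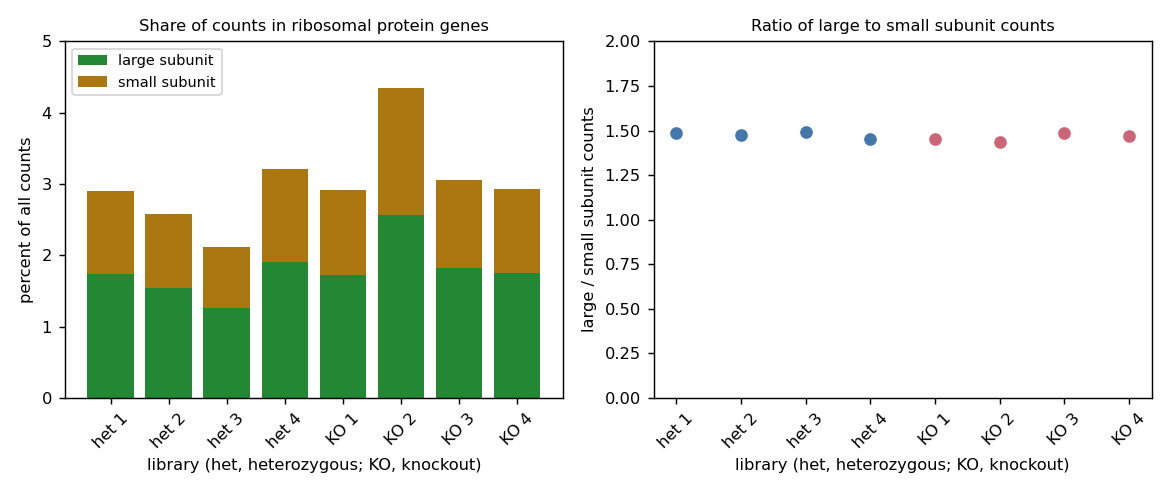
Left, percent of all counts in ribosomal protein genes in each library (bars from 0, large subunit in green, small subunit in ochre). Right, ratio of large to small subunit counts in the same libraries (blue, heterozygous; red, knockout). The share runs from 2.11% to 4.34% while the ratio stays between 1.44 and 1.49.

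The same libraries were high or low for nearly every gene. Of the 75 members with enough counts to be tested, 73 had their highest CPM across knockout 2 and 73 had their lowest in heterozygous 3. The share of all tested genes with these extremes is not given here. Summed mitochondrial ribosomal protein genes had the same highest and lowest library. Within the heterozygous libraries, heterozygous 4 was highest for 73 members, and within the knockout libraries knockout 2 was highest for 74. Relative to each gene's mean, the median member lay at -0.14, -0.23, -0.57 and 0.18 log2 units in heterozygous libraries 1 to 4 and at 0.03, 0.67, 0.09 and -0.07 in knockout libraries 1 to 4. The median within-genotype SD of a member was 0.32 log2 units, against 0.26 for the 4175 tested genes of at least 50 CPM. Measured against the mean of all 75 members in the same library, the median SD was 0.09. The genes that followed the block most closely were Rps14, a protein of the mRNA exit channel, and Rps27a, made as a fusion with ubiquitin, each with an SD of 0.03 around it. Those that followed it least were the scarcely counted Rps27 (0.50), the large subunit genes Rpl38 (0.28) and Rpl4 (0.26), and Rpsa (0.25).

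Levels of other cell types' transcripts were set beside this order. The mean log2 CPM of their markers was 5.71, 4.76, 4.92 and 5.06 in heterozygous libraries 1 to 4 and 3.16, 2.34, 3.66 and 2.14 in knockout libraries 1 to 4. The genotypes did not overlap on this score. With the score as a covariate, the median log2 fold change of the members was 0.17 instead of 0.38, a fit that cannot separate score from genotype. The part of other cells' RNA in the differences between libraries of a genotype was not tested. In bulk RNA, fewer cells of a type and less RNA per cell cannot be told apart.

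**Figure D2:**
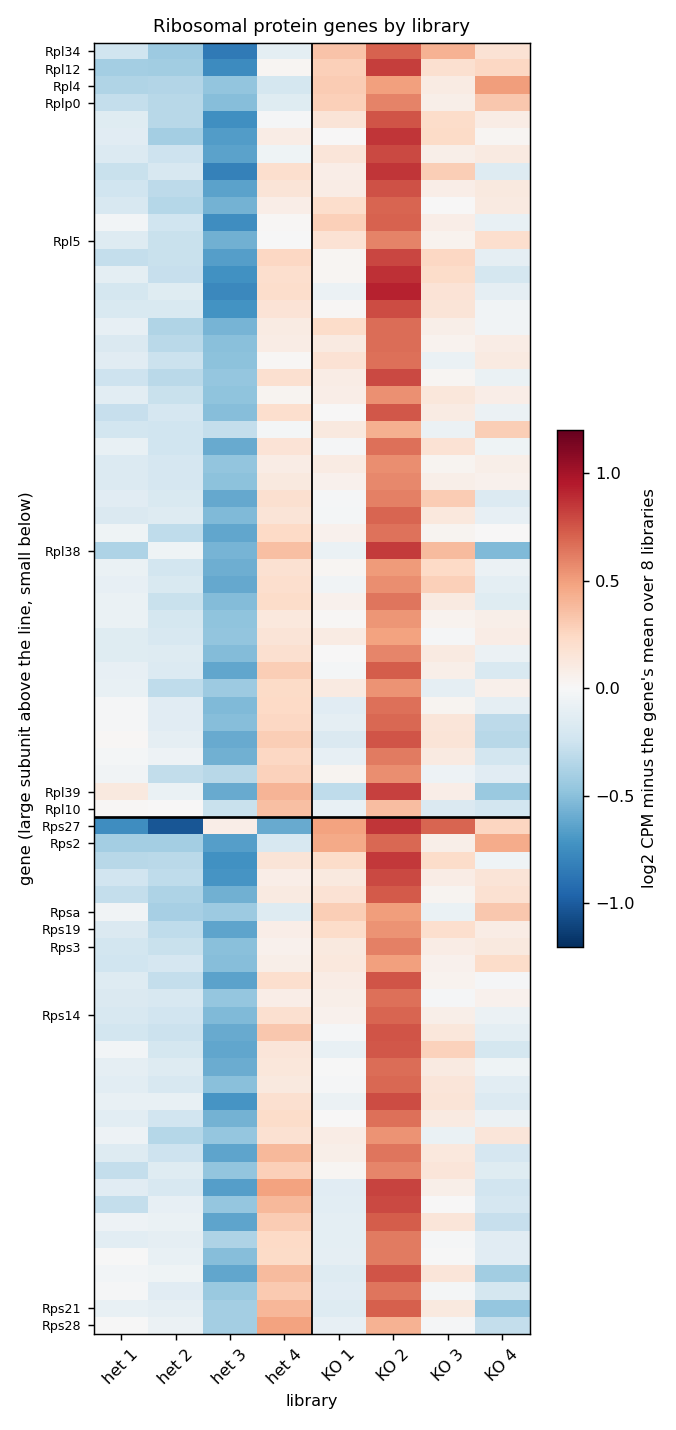
Each row is 1 of the 75 tested ribosomal protein genes and each column 1 library. Colour gives log2 CPM minus the gene's own mean over 8 libraries (red above, blue below), and rows are sorted by fold change within each subunit, with some rows labelled. Knockout 2 is red and heterozygous 3 is blue along almost the whole column, the exception in heterozygous 3 being Rps27.

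Between genotypes, most members leaned towards higher levels in knockout cells, but few passed the test. Of 75 tested, 4 rose (Rps2, Rpl4, Rplp0 and Rpl12), 0 fell and 71 were not called (edgeR quasi-likelihood test, Benjamini-Hochberg adjusted p under 0.05 over 13540 genes). Over all tested genes 9.55% were called, 5.53% higher and 4.02% lower, so 4 of 75 is near the background. The balance of all calls depended on the fit: 749 higher and 544 lower became 539 and 725 with library size alone, 593 and 642 with upper quartile scaling, and 1153 and 1241 with DESeq2. At an unadjusted p under 0.05 there were 25 of 75 members, against 3473 of 13540 genes (25.6%). The log2 fold change was above 0 for 73 of 75 members, against 47.9% of all genes, but these genes vary together and are not separate observations. The median log2 fold change was 0.38 (0.39 in the large and 0.37 in the small subunit), against -0.03 over all genes. Without knockout 2 it was 0.21. Every knockout library exceeded every heterozygous library for 13 of 75 members, against 9.7% of all genes. The reverse held for 0 members, against 7.9%. DESeq2 called 9 of 75 members, all higher, against 16.2% of all genes: the same 4 with Rpl34, Rpsa, Rpl31, Rpl5 and Rps19.

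**Figure D3:**
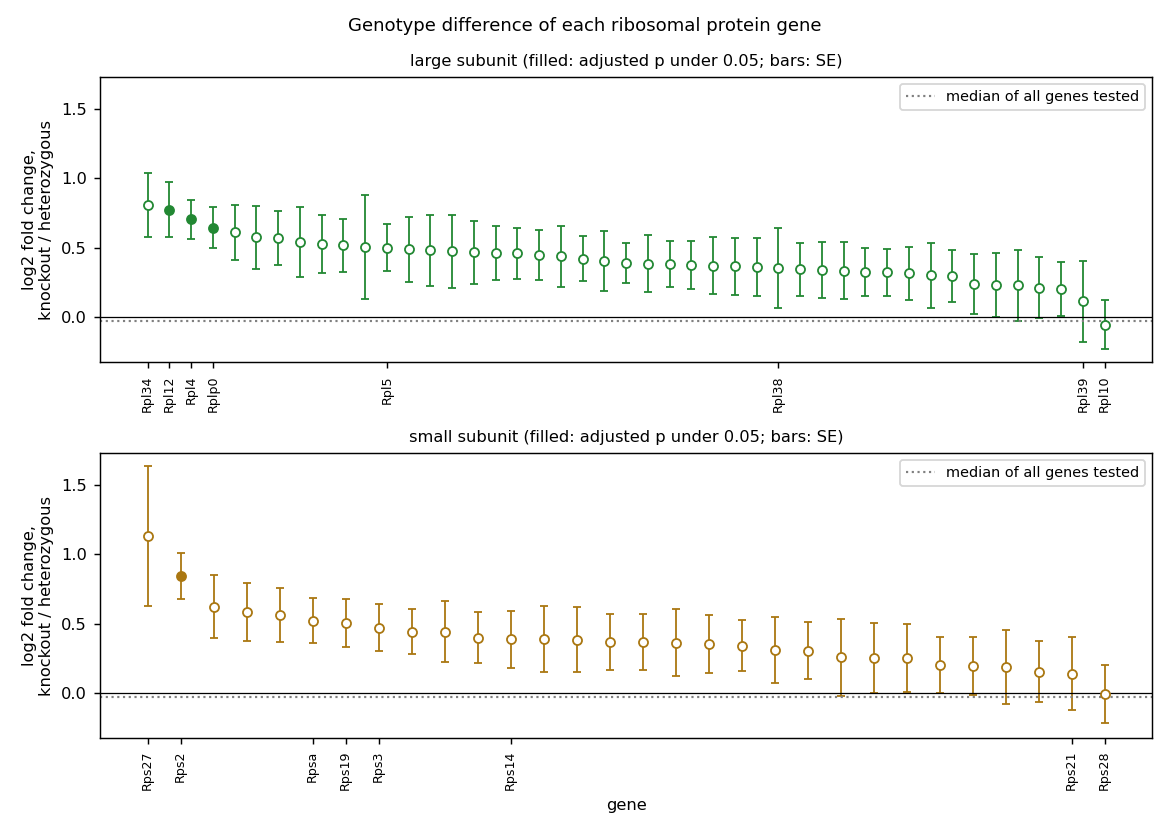
Log2 fold change of knockout over heterozygous for each tested member (points; bars, SE), sorted within the large (top) and small (bottom) subunit, with some genes labelled. Filled points passed an adjusted p of 0.05 in edgeR, and the dotted line is the median of all tested genes. All points but those of Rpl10 and Rps28 lie above 0, and most bars overlap one another.

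Rps2 forms part of the channel through which mRNA enters the small subunit. Its level was 882, 883, 738 and 1026 CPM across heterozygous libraries 1 to 4 and 1608, 1891, 1232 and 1590 CPM across knockout libraries 1 to 4. The lowest knockout library lay above the highest heterozygous one. The log2 fold change was 0.84 ± 0.16 (SE; edgeR adjusted p = 0.0116). Its neighbour at the mRNA entry, Rps3, had 542 to 798 CPM across heterozygous and 816 to 1169 CPM across knockout libraries. Its groups did not overlap either, but its log2 fold change of 0.47 fell short of a call (edgeR adjusted p = 0.111).

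Rpl4 reaches with a long loop into the tunnel through which the new protein leaves the ribosome. Its level was 692, 697, 639 and 768 CPM across heterozygous libraries 1 to 4 and 1101, 1247, 950 and 1258 CPM across knockout libraries 1 to 4. Its log2 fold change of 0.70 ± 0.14 (SE) passed the test as well (edgeR adjusted p = 0.0119). Unlike most members it was not highest in knockout 2, since knockout 4 was slightly above. The genotypes did not overlap.

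Rplp0 is the base of the P-stalk, the flexible arm of the large subunit that recruits elongation factors. It had 969, 938, 834 and 1072 CPM across heterozygous libraries 1 to 4 and 1441, 1795, 1242 and 1484 CPM across knockout libraries 1 to 4. All knockout values were above all heterozygous ones (log2 fold change 0.64 ± 0.15, SE; edgeR adjusted p = 0.0245). Its stalk partners Rplp1 and Rplp2 had smaller log2 fold changes of 0.46 and 0.48, and neither was called (edgeR adjusted p = 0.166 and 0.268). Rpl12, which binds at the foot of the same stalk, had 149, 148, 117 and 200 CPM against 240, 349, 225 and 233 CPM. Its groups did not overlap (log2 fold change 0.77 ± 0.20, SE; edgeR adjusted p = 0.0363).

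Omitting each of the 8 libraries in turn, Rpl4 and Rps2 were called every time. Rplp0 lost its call without heterozygous 2 or 3 or knockout 1 or 4 (highest edgeR adjusted p = 0.0662). Rpl12 lost its call without heterozygous 1, 2 or 3 or knockout 1, 2 or 4 (highest edgeR adjusted p = 0.0861). With the other-cell score as a covariate 0 of the 75 members were called and 0 had an unadjusted p under 0.05 (edgeR). Of all 13540 genes 0 were called and 975 had an unadjusted p under 0.05 in that fit. The score did not overlap between genotypes, so that fit cannot separate score from genotype. The SE of Rps2 was 0.41 in it, against 0.16 without the score. Heterozygous 2 and knockout 1 had 0 and 1 counts of Xist, which is transcribed from the inactive X of female cells, and 331 and 914 counts of the Y-linked Ddx3y. The other 6 libraries had 229 to 1135 counts of Xist, and of these heterozygous 3, heterozygous 4 and knockout 4 also had 28, 56 and 6 counts of Ddx3y. Without those 2 libraries 0 members were called (edgeR; 11 at an unadjusted p under 0.05), and the members' median log2 fold change was 0.45. Of all genes 300 were called in that fit, against 1293 with all 8 libraries. Their share at an unadjusted p under 0.05 in that fit is not given here.

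Other functional groups of the ribosome held no member called by edgeR, where 9.55% of all tested genes were called. At an unadjusted p under 0.05 the share of all genes was 25.6%. The 5S particle, in which Rpl5 and Rpl11 join 5S RNA and which can bind the p53 inhibitor Mdm2, had log2 fold changes of 0.50 for Rpl5 and 0.37 for Rpl11. Rpl5 did not overlap between genotypes, at 368 to 545 CPM across heterozygous and 562 to 825 CPM across knockout libraries (edgeR adjusted p = 0.0907). At the tunnel exit, where chaperones and the secretion machinery dock, 0 of 6 tested genes were called and 3 had an unadjusted p under 0.05 (Rpl17, Rpl19, Rpl23a, Rpl31, Rpl35 and Rpl39), with log2 fold changes from 0.12 for Rpl39 to 0.61 for Rpl31. Around the mRNA exit, 0 of 5 were called and 1 had an unadjusted p under 0.05 (among them Rpsa, Rps14, Rps26 and Rps28), from -0.01 for Rps28 to 0.52 for Rpsa. The ubiquitin fusion gene Rps27a had a log2 fold change of 0.35 (edgeR adjusted p = 0.319).

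Among 18 tested members that are mutated in Diamond-Blackfan anaemia, a human failure of red cell production, 0 were called by edgeR (9.55% of all genes). Of these members 5 had an unadjusted p under 0.05, against 25.6% of all genes. Their median log2 fold change was 0.37, close to the 0.38 of all members. Rps19, the gene most often affected in that disease, had 542, 496, 394 and 647 CPM across heterozygous libraries 1 to 4 and 712, 888, 703 and 650 CPM across knockout libraries 1 to 4. The lowest knockout value was just above the highest heterozygous one (log2 fold change 0.51 ± 0.17, SE; edgeR adjusted p = 0.0938). The 4 members on the X chromosome (Rps4x, Rpl10, Rpl36a and Rpl39) were not called, 0 of them at an unadjusted p under 0.05 (edgeR), with log2 fold changes of 0.40, -0.05, 0.47 and 0.12.

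Measured against the block, some members were lower in knockout libraries. Rpl10, which sits near the peptidyl transferase centre and joins the large subunit late in assembly, lay 1.06, 1.13, 1.18 and 1.10 log2 units above the mean of the 75 members in heterozygous libraries 1 to 4. In knockout libraries 1 to 4 it lay 0.75, 0.59, 0.61 and 0.71 above it. The groups did not overlap on this relative scale, although in CPM its means were 540 ± 98.5 and 521 ± 106 (SD, n = 4 each) and overlapped. Rps28, a small protein at the mRNA exit, lay at -0.39, -0.38, -0.40 and -0.22 in heterozygous and at -0.69, -0.80, -0.67 and -0.79 in knockout libraries, again without overlap. Rps9 and Rps10 were also lower relative to the block in every knockout library than in every heterozygous one, with differences of -0.26 and -0.21.

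On this relative scale, 9 of 75 members did not overlap with knockout lower (among them Rpl6, Rpl10, Rpl21, Rpl27, Rps9, Rps10, Rps21 and Rps28). Another 5 of the 75 did not overlap with knockout higher (among them Rps2, Rpl12, Rpl31 and Rpl34). Over all genes these were 16.3% and 1.41%, with the block itself higher in knockout libraries. Rps2 (difference 0.44), Rpl34 (0.42) and Rpl12 (0.38) stood furthest above among these. The members' summed counts were also used as the library size, a scaling chosen after seeing the data. In that fit 0 of 75 members were called, against 5.97% of all genes (edgeR, adjusted p under 0.05). Of the members 4 had an unadjusted p under 0.05, and the share of all genes at that threshold is not given here. Rpl10 then had a log2 fold change of -0.47 ± 0.14 (SE; edgeR adjusted p = 0.068) and Rps2 one of 0.43 (edgeR adjusted p = 0.118).

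The height of Rps2, Rpl4 and Rplp0 above the block was uneven among knockout libraries. Rps2 lay 2.46 and 2.53 log2 units above the mean of the members in knockout 1 and 4, and 2.07 and 2.02 above it in knockout 2 and 3, against 1.70 to 1.94 in heterozygous libraries. Rpl4 lay at 1.91 and 2.19 in knockout 1 and 4 and at 1.47 and 1.64 in knockout 2 and 3, where it overlapped the heterozygous range of 1.29 to 1.73. Rplp0 showed the same order, with 2.30 and 2.43 against 1.99 and 2.03. Its lower pair lay within its heterozygous range of 1.77 to 2.12. The split was not limited to called members. Rpsa, which was not called, lay at 1.69 and 1.81 in knockout 1 and 4 and at 1.28 and 1.27 in knockout 2 and 3. Rpl38 had the reverse order, at 0.835 and 0.476 against 1.127 and 1.239. How many members had each order is not given here. The transcripts of Rps2, Rpl4 and Rplp0 are among the 25 longest of the members. The summed CPM of those 25, these 3 included, divided by that of the 25 shortest was 2.13 in knockout 1 and 2.35 in knockout 4, and 1.72 to 2.04 in the other 6 libraries. The part of transcript length in these differences was not tested. Over the 75 members, length and log2 fold change had a Spearman rho of 0.10, given as a description across genes of the same libraries. The lengths are those of annotated transcripts, and the 5130 bases of Rps15a and 3706 of Rps20 are long for this family. Both the rho and the ratio rest on these lengths.

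**Figure D4:**
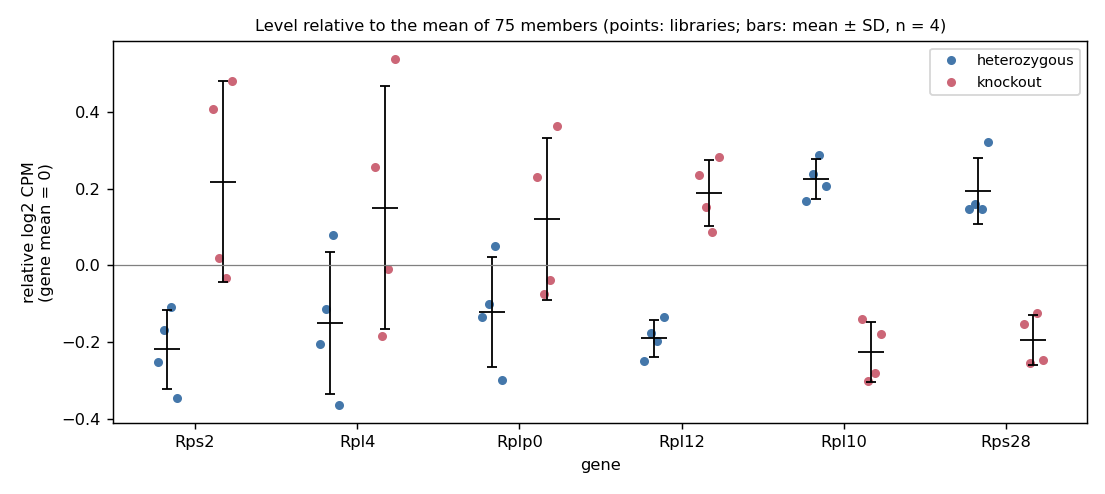
Level of 6 members relative to the mean log2 CPM of all 75 in the same library, with each gene's mean over 8 libraries set to 0. Points are libraries (blue, heterozygous; red, knockout) and bars the mean ± SD of 4. Rpl12, Rpl10 and Rps28 are tight within a genotype, whereas Rps2, Rpl4 and Rplp0 split into a pair of high and a pair of low knockout libraries.

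Levels per length differed widely between genes of a complex that needs its proteins in equal numbers. With counts divided by the length of the shortest well-supported principal transcript of each gene, Rpl38 stood highest at 1684 CPM per kilobase, followed by Rpl13 (1553), Rpl41 (1419), Rps2 (1233) and Rps14 (1230). Among the largest CPM values, which depend on length too, were those of Rplp0, Rpl13, Rpl4 and Rpl3 in the large subunit, at 1222, 1211, 919 and 792 CPM, and of Rps2, Rpsa, Rps3 and Rps14 in the small one, at 1231, 793, 786 and 734 CPM. The low per-length levels of Rps15a (18.2) and Rps20 (59.4) rest on annotated transcripts of 5130 and 3706 bases, which are long for genes of this family.

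A few members were counted far below the others, also per length: Rpl34 had 42.9, Rpl30 10.3 and Rps27 9.42 CPM per kilobase. Rpl26, whose product sits at the tunnel exit, was listed at 0 in all 8 libraries, where a count of 0 allows up to 0.0865 to 0.318 CPM (3 counts). Rps27, a zinc-binding small subunit protein, had 1.71, 1.38, 3.12 and 1.89 CPM across heterozygous and 4.14, 5.40, 4.84 and 3.52 CPM across knockout libraries 1 to 4. Those groups did not overlap, but its log2 fold change of 1.13 ± 0.50 (SE), the highest of all members, was not called (edgeR adjusted p = 0.188). Rpl30 averaged 5.86 CPM. Rpl34 had 16.5, 14.4, 10.8 and 18.03 CPM against 24.7, 32.0, 26.1 and 22.1 CPM, and it did not overlap (log2 fold change 0.81 ± 0.23, SE; edgeR adjusted p = 0.0517). Next above these in CPM came Rps21 (55.9), Rpl22 (86.1), Rps15a (93.5), Rpl39 (114), Rpl37 (118), Rpl36a (122), Rps12 (129), Rps23 (149) and Rps26 (150).

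Ribosomal protein genes have many processed pseudogenes, and how the authors treated reads that map to several genes is not stated in the labels or the notes. In the median member 58.7% of the 50-base words of the transcript, the read length, also occur in the transcripts of another annotated gene. The share was 98.7% for Rps27, 71.3% for Rpl26, 76.4% for Rpl30 and 50.6% for Rpl34. It was 92.1% for Rpl10 and 80.3% for Rpl13 as well, which had 530 and 1211 CPM. Across the 76 members, Rpl26 included, the share and CPM per kilobase had a Spearman rho of 0.10, a description across genes. Absolute levels of these genes are therefore uncertain, the part of shared words in the low counts was not tested, and a part of Rpl30 (34.7% of its exon bases) also overlaps another gene, D730044K07Rik.

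Ribosomal proteins with names outside the rule had fold changes within the range of the members. Rps3a1, Gnb2l1 (the scaffold protein Rack1) and Fau, made as a fusion with a ubiquitin-like protein, had log2 fold changes of 0.61, 0.54 and 0.18. None of the 4 genes of this list was called (edgeR), against 9.55% of all genes. An unadjusted p under 0.05 was found for 2 of the 4, against 25.6% of all genes. Every knockout library was above every heterozygous one for 1 of the 4, against 9.7% of all genes. Rps3a1 came nearest, with 381 to 582 CPM across heterozygous and 645 to 966 CPM across knockout libraries (edgeR adjusted p = 0.0587).

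Of 6 tested paralogs 2 rose and 0 fell, against 5.53% and 4.02% of all genes. These paralogs can stand in for a standard ribosomal protein or are close copies of one. Rpl39l, a relative of Rpl39 best known from male germ cells, had 0.475, 0.531, 0.640 and 0.167 CPM across heterozygous and 3.94, 4.01, 5.58 and 1.99 CPM across knockout libraries 1 to 4. These are 3 to 15 counts per heterozygous and 46 to 98 counts per knockout library, with no overlap (log2 fold change 3.08 ± 0.70, SE; edgeR adjusted p = 0.0227). Omitting heterozygous 1, heterozygous 3 or knockout 1 ended the call. No 50-base word of the Rpl39l transcript occurs in another gene's annotated transcripts. Its parent Rpl39 had 71.3 to 144 CPM across heterozygous and 79.3 to 191 CPM across knockout libraries and was not called (log2 fold change 0.12; edgeR adjusted p = 0.839).

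Rps4l, which the annotation lists as a transcribed pseudogene related to Rps4x, had 132, 122, 105 and 114 CPM across heterozygous and 207, 244, 184 and 184 CPM across knockout libraries 1 to 4. It did not overlap between genotypes and kept its call whichever of the 8 libraries was omitted (log2 fold change 0.79 ± 0.14, SE; edgeR adjusted p = 0.00866). Rps4x, at 288 to 420 against 395 to 630 CPM, was not called (log2 fold change 0.40; edgeR adjusted p = 0.202). Of the Rps4l words 17.97% occur in another gene. Rpl22l1 had a log2 fold change of -0.85 ± 0.40 (SE) with overlapping groups, 12.9 to 29.4 CPM against 6.61 to 20.1 CPM, while that of Rpl22 was 0.44, and neither was called (edgeR adjusted p = 0.211 and 0.244). Rps27l, a p53-responsive relative of Rps27, averaged 165 ± 39.6 and 254 ± 67.8 CPM (SD, n = 4 each), far above its parent, and was not called (edgeR adjusted p = 0.104). Rpl36al and Rpl7l1 were not called either, at log2 fold changes of 0.38 and 0.20. Rpl10l was listed at 0 in all libraries, and Rpl3l, a muscle gene, was too low to be tested.

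**Figure D5:**
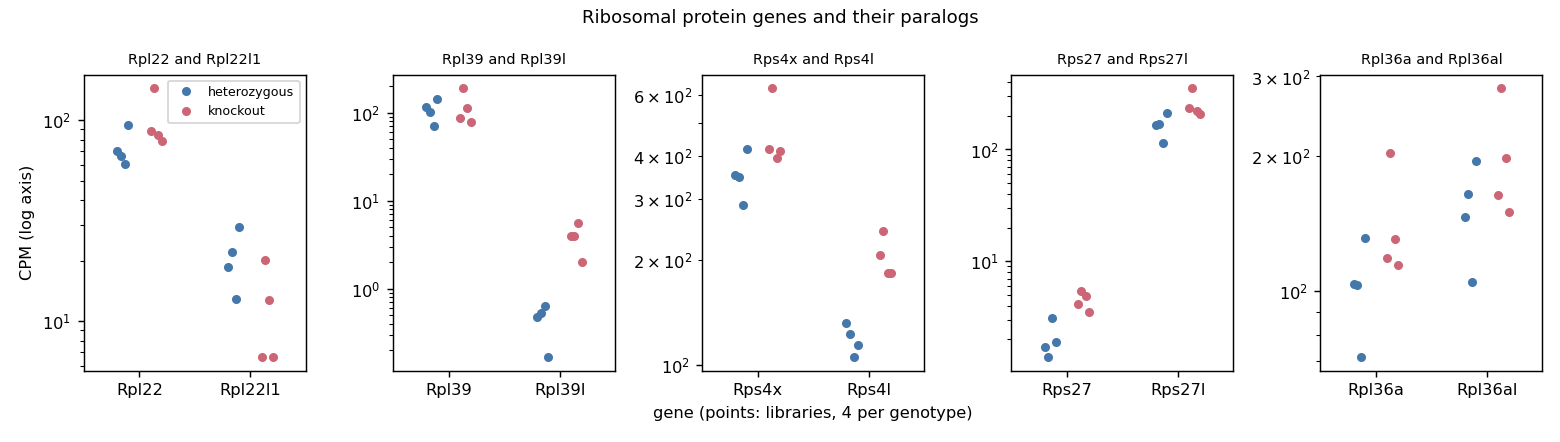
CPM per library on a log axis for 5 ribosomal protein genes and their paralogs (blue, heterozygous; red, knockout; 4 libraries each). Rpl39l and Rps4l are higher in every knockout library than in every heterozygous one, and the Rps27l points lie above those of Rps27.

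The rest of the translation machinery was examined in lists chosen with earlier results of these data known, and their counts describe these libraries only. Beside them stand the 5.53% of all tested genes called higher and the 4.02% called lower. Among 18 other mRNAs with a TOP motif, 2 rose and 0 fell, with a median log2 fold change of 0.21. These were Eef1g, a subunit of the elongation factor that reloads Eef1a (log2 fold change 0.72; edgeR adjusted p = 0.0186), and Pabpc1, the cytoplasmic poly(A)-binding protein (0.58; edgeR adjusted p = 0.0439). When libraries were omitted in turn, Eef1g lost its call without heterozygous 3, knockout 1 or knockout 4, and Pabpc1 kept its call in 1 of 8 fits, that without heterozygous 4.

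Of 28 initiation factor genes 2 rose. Eif3g, a subunit of the scaffold Eif3, had 195 to 241 CPM across heterozygous and 318 to 373 CPM across knockout libraries (log2 fold change 0.65; edgeR adjusted p = 0.0115). Eif2s2, the beta subunit of the factor that brings the initiator tRNA, had 109 to 154 against 192 to 300 CPM (log2 fold change 0.77; edgeR adjusted p = 0.0235), a call lost without heterozygous 1, 2 or 3. Of 11 elongation and release factor genes, Eef2k, the kinase that inhibits elongation factor Eef2, fell. It had between 44.1 and 64.8 CPM across heterozygous and between 17.7 and 27.7 CPM across knockout libraries. Its log2 fold change was -1.08 ± 0.20 (SE; edgeR adjusted p = 0.00974).

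Of 51 ribosome assembly factors 2 rose and 1 fell, beside the 9.55% of all genes called, with a median log2 fold change of 0.32. Bccip, a large subunit assembly factor, and Nop16, a nucleolar protein, had log2 fold changes of 0.64 and 0.56 (edgeR adjusted p = 0.0225 and 0.0289). Bccip lost its call without heterozygous 1, 3 or 4, and Nop16 kept its call only without knockout 1 or knockout 3 among the 8 fits that omit a library. Sbds, which helps to release an assembly factor from the finished large subunit, had one of -0.64 (edgeR adjusted p = 0.0378), and among the same 8 fits it kept its call only without heterozygous 1 or knockout 3. Of 15 genes of RNA polymerase I and its partners, which transcribe ribosomal RNA, 0 were called (edgeR). An unadjusted p under 0.05 was found for 2 of the 15, against 25.6% of all genes. Polr1d and Ubtf, the most abundant of the 15, had log2 fold changes of 0.59 and 0.32 (edgeR adjusted p = 0.0544 and 0.253).

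Among 17 genes of the mTORC1 and LARP1 pathway, 2 rose. Eif4ebp1, the repressor of cap-dependent initiation that mTORC1 inactivates, had 86.6, 94.2, 72.3 and 103 CPM across heterozygous and 514, 472, 276 and 610 CPM across knockout libraries 1 to 4. The groups lay far apart (log2 fold change 2.40 ± 0.23, SE; edgeR adjusted p = 7.09e-04). Sesn2, an inhibitor of mTORC1 that senses leucine, had 21.0, 22.5, 20.8 and 17.4 CPM against 77.4, 37.2, 29.5 and 96.0 CPM, again without overlap (log2 fold change 1.56 ± 0.34, SE; edgeR adjusted p = 0.0198). Knockout 1 and 4 were the highest libraries for both of these genes, and Sesn2 lost its call without either of them or without heterozygous 1. Larp1 had a log2 fold change of 0.55 (edgeR adjusted p = 0.0677).

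Of 10 genes of the Myc family, which drives transcription of ribosomal protein genes, Mycl fell. It had 16.98 to 59.6 CPM across heterozygous and 6.71 to 15.5 CPM across knockout libraries (log2 fold change -1.99 ± 0.42, SE; edgeR adjusted p = 0.0161), and it lost its call without knockout 1 or knockout 4. Myc itself had 55.0 and 53.2 CPM on average (log2 fold change -0.05; edgeR adjusted p = 0.905). Trp53 and Mdm2, the partners of free ribosomal proteins in the p53 response, had log2 fold changes of -0.07 and 0.43 (edgeR adjusted p = 0.796 and 0.313).

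The mitochondrial ribosome served for comparison, since its proteins are likewise encoded in the nucleus but belong to another particle. Of 77 tested genes 2 rose and 0 fell, against 5.53% called higher and 4.02% called lower over all genes. The median log2 fold change was 0.16, and 56 of 77 genes were above 0, against 47.9% of all genes. Mrpl17 had a log2 fold change of 1.11 ± 0.16 (SE; edgeR adjusted p = 0.00384) and Mrpl10 one of 0.60 ± 0.17 (SE; edgeR adjusted p = 0.0486). Mrpl10 kept its call in 1 of the 8 fits that omit a library, that without knockout 3. Summed over the list, the level was 5545, 5279, 4588 and 6147 CPM across heterozygous and 5570, 7862, 5694 and 5464 CPM across knockout libraries 1 to 4. The highest was knockout 2 and the lowest heterozygous 3, as for the cytosolic proteins, with the highest sum 1.71 times the lowest. The difference between the cytosolic and mitochondrial lists was not tested.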

How the data were processed

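RNA was sequenced from 8 libraries (SMART-Seq v4 complementary DNA, Nextera XT, single-end reads of 50 bases, over 40 M reads stated, per the labels' protocols). The authors deposited raw counts per gene symbol. Per the submitters' processing notes, TopHat2 (version 0.7), Cufflinks (version 2.2.1) and the build mm10 were used; for the counting program, strand setting and multiply mapping reads, details were not given in the sources used here. Genes were kept with edgeR's filterByExpr (edgeR 4.0.16 in R 4.3.3; minimum count 10, minimum total 15), which left 13540 genes with 99.9% of counts. Total counts per library ran from 9.11 to 35.9 M. Genotypes were compared with edgeR's quasi-likelihood F-test (TMM scaling, robust dispersion, no covariate), p-values were adjusted by Benjamini-Hochberg over all tested genes, with calls made below an adjusted p of 0.05. The SE is the log2 fold change divided by the square root of F. CPM used TMM-scaled library sizes, and log2 CPM a prior count of 2. Shares of counts used raw library totals, with no test.

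On simulated counts for 13540 genes of this comparison, 29% of 100 genes changed by 2-fold and 68% of 100 changed by 4-fold were recovered, and 10 of 107 calls were false. No pair of libraries of a genotype agreed within sampling noise (lowest chi-square per degree of freedom, 29.0). Alternatives were other scalings and filters, DESeq2 1.42.0, limma voom (limma 3.58.1), the replicate number as a block, a covariate and omitted libraries. Transcript lengths came from GENCODE M21, and start regions from RefSeq on GRCm38.p6. The named genes are the called members, the 5 highest and 5 lowest members of each subunit, those of the named functional groups, and from each other list up to 4 called genes or the 2 most abundant. Rpl6, Rpl21, Rpl27, Rpl37, Rpl38, Rpl41, Rps9, Rps10, Rps19, Rps20, Fau, Larp1 and Myc fall outside this rule. They were chosen after their values were seen. Rpl7a, Rpl9, Rpl14, Rpl15, Rpl18, Rpl23 and Rps18 also fall outside it and are printed for their gap in knockout 2. Some genes that the rule names are not reported here. Members and lists were chosen with earlier results of these data known.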

Additional observations from a re-analysis of the deposited data

Results flagged for a closer look

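Knockout 2 lay apart from the other knockout libraries in many measures of these genes, with a gap to the next library that exceeded the 95% critical value of Dixon's test for 4 samples. It had 4.34% of counts in ribosomal protein genes, against 2.91% to 3.06% in the other 3. For the large subunit the share was 2.56%, against 1.73% to 1.83%, and for the small subunit 1.78%, against 1.19% to 1.23%. The gap was that large in 22 of the 150 member groups tested, all in knockout 2, where chance flags about 1 in 20 groups of independent values, and these genes are not independent. The values of 19 of these 22 follow.

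In the large subunit the CPM in knockout 2 was 349 for Rpl12, 1731 for Rpl13, 374 for Rpl14, 835 for Rpl15, 795 for Rpl18, 778 for Rpl19, 379 for Rpl21, 145 for Rpl22, 456 for Rpl23, 555 for Rpl23a, 298 for Rpl31, 409 for Rpl7a and 723 for Rpl9. In the small subunit it was 303 for Rps10, 1158 for Rps14, 760 for Rps18, 367 for Rps20, 1169 for Rps3 and 630 for Rps4x. Of the genes outside the family, the initiation factor gene Eif2s2 was high in knockout 2 as well (299.5 CPM, against 192 to 204 CPM), and Eef2k was low in knockout 3 (17.7 CPM, against 26.8 to 27.7 CPM).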

How the results depend on the processing

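Leaving out 1 library at a time gave 2 to 5 called members, 579 to 1347 called genes in all, and member medians of 0.21 to 0.52. The number of called members was 9 with DESeq2, 2 with the replicate block, 2 without heterozygous 1 and knockout 2, and 0 each without heterozygous 2 and knockout 1, with the other-cell score and with the members' summed counts as library size, a scaling chosen after seeing the data, which put their median log2 fold change at -0.033. All called genes numbered 2394 with DESeq2, 842 and 300 without those pairs of libraries, 0 with the other-cell score and 808 with the summed counts. The other settings called 3 to 5 members. With library size alone the median of all genes was -0.15 instead of -0.03. Same-numbered libraries correlated by 0.06, 0.21, -0.05 and 0.02, and 1 of 4 correlated best with its own number. Whether such libraries share more than a number cannot be told from these values. Over 19 called genes and 21 settings, 267 of the values kept their call, 132 lost it and 0 changed sign. The causes were not tested. Depth limits the precision of low counts, such as the 13 to 122 counts per library of Rps27 and the 3 to 98 of Rpl39l. With the replicate block all calls split into 433 higher and 435 lower.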
